A study of Homo sapiens with 9 samples.

Results

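A module of 59 genes for the actin cytoskeleton and for focal adhesions was described in BEAS-2B cells, an immortalized line of human bronchial epithelium. The genes were listed by symbol (actins, actin-turnover proteins, myosin II subunits, tropomyosins, crosslinkers and adhesion proteins), and a listed gene was kept where at least 10 counts were found in at least 3 of the 9 libraries. All 59 passed that filter, as did 16030 of the 63187 genes of the count table. The count filter used no difference between treatments, but the list itself was drawn up with results of these data known. The study names FLNA and FBLIM1 among its downregulated cytoskeleton genes. The counts of called genes below therefore describe the list and do not test it.

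RNA was sequenced after 24 h from cells left untreated (control) and from cells given aerosol condensate, in both treatments at a 2% dilution. The condensate was that of the carrier, propylene glycol and vegetable glycerin (PG/VG), or of an e-cigarette liquid with 18 mg/mL nicotine and Virginia tobacco flavor (EC). EC therefore differed from PG/VG by nicotine and flavor at least, and the contributions of those components cannot be told apart. Each condition had 3 libraries, 1 in each of the batches that the labels number 2, 3 and 4, and the total ranged from 16168260 to 24917838 counts per library. The control libraries, with 16168260, 16648310 and 17882770 counts, were the shallowest of the 9. All libraries came from 1 cell line, and the tests measure only the spread between these cultures.

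The epithelial markers were partly present: KRT8, KRT7 and KRT18 averaged 1058, 859.9 and 546 CPM (counts scaled to library size, TMM-normalized) in control, while the junction markers EPCAM and CDH1 were at 1.2 and 0.684 CPM. The mesenchymal markers VIM and FN1 averaged 1068 and 4791 CPM. Of the smooth muscle markers, the defining genes MYH11 and DES were near 0 (0.915 and 0.0842 CPM), as was CNN1 (0.618 CPM), while TAGLN, SMTN and ACTA2 averaged 390.5, 134 and 14.4 CPM. The skeletal and cardiac muscle, endothelial and immune lists summed to at most 0.762, 9.68 and 0.124 CPM in any control library.

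Actin filaments are built from monomers delivered by profilin, branched by the Arp2/3 complex, elongated by formins and Ena/VASP proteins, and severed by cofilin. Alpha-actinins and filamins crosslink them, and bipolar myosin II filaments pull on them to make contractile stress fibers, on which tropomyosins and calponins control the access of other proteins. At their ends, stress fibers meet focal adhesions, where talin, vinculin, zyxin and paxillin couple actin to integrins, and many of these genes are classical targets of the serum response factor SRF, which is activated when free actin monomers are scarce.

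In untreated cells the module accounted for 4.49, 4.58 and 3.72% of all counts in batches 2, 3 and 4. Levels per length, in CPM per kb of the canonical transcript, differed widely among the 59 genes. ACTB and ACTG1, the cytoplasmic beta- and gamma-actin, stood highest at 3705 and 3033 CPM per kb of control mean, followed by PFN1 (profilin 1) at 1094, MYL6 (the essential myosin light chain) at 952 and CFL1 (cofilin 1) at 714. At the other end were TLN2, TNS1, ARPC1B, ILK and CNN1, at 5.82, 4.47, 3.78, 2.32 and 0.412 CPM per kb. The canonical transcripts of ARPC1B and ILK overlap other annotated genes over nearly all of their length (97.2% for ILK), and of all their annotated exon bases 25.7 and 78.5% are overlapped. Reads assigned to more than 1 gene were not counted, and how many these genes lost depends on the strand setting, which is not known here. ACTG1, ACTB, CNN2 and PFN1 have 21, 12, 11 and 10 pseudogenes named after them, and since multi-mapping reads were not counted either, reads that fit several copies equally are missing from their levels.

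**Figure D1:**
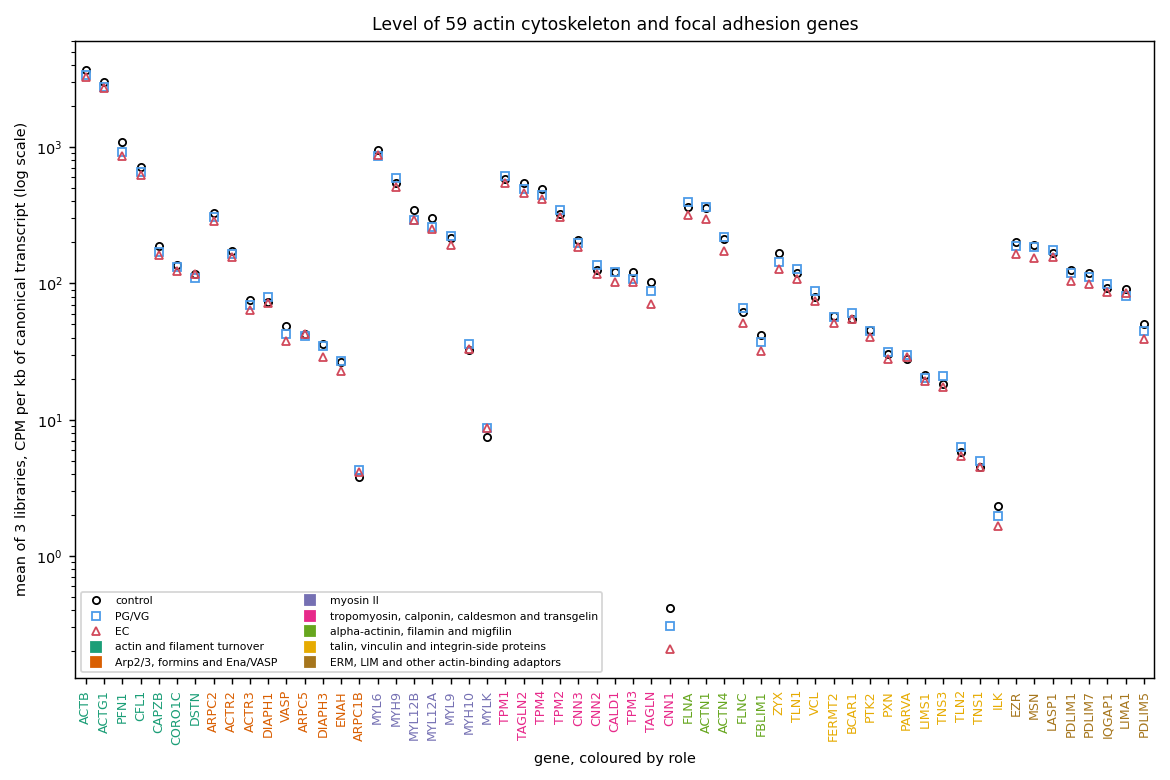
Mean level of each of the 59 genes in control (circles), PG/VG (squares) and EC (triangles), in CPM per kb of canonical transcript on a log axis, with genes grouped and colored by role. The 3 conditions nearly coincide on this axis for most genes, CNN1 and ILK spread the most, and ACTB and ACTG1 lead at 3705 and 3033 CPM per kb in control.

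Much of the module was lower in EC, by small amounts. In EC vs. control, 25 of the 59 genes were lower and 0 were higher at an adjusted p under 0.05 (edgeR quasi-likelihood test with batch as a block, Benjamini-Hochberg over 16030 genes), against 5.38% lower and 8.07% higher among all genes tested. At an unadjusted p under 0.05, 36 of the 59 differed, against 27.4% of all genes. The median log2 fold change (LFC) of the module was -0.20, while that of all genes was 0.0078, and 53 of 59 LFC were below 0. The LFC of these 25 genes ran from -0.20 (CNN3) to -0.54 (TAGLN), changes of -12.7 and -31% against the control level. Because the module is abundant, it was also set beside the 2582 genes with a mean of at least 100 CPM: 24 of its 51 genes at that level were called lower, against 14.4% of that group. In all 3 batches the EC library was below its own control for 43 of 59 genes, against 21.7% of all genes, and the within-batch medians were -0.18, -0.18 and -0.22. In bulk RNA, fewer transcripts per cell and fewer cells that make them cannot be told apart.

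PG/VG gave fewer calls. In PG/VG vs. control, which shares its control libraries with EC vs. control, 2 genes were lower (PFN1 and MYL12B) and 0 were higher, against 1.9% lower and 2.63% higher among all genes, and 16 had an unadjusted p under 0.05, against 20.1% of all genes. At 100 CPM or more, 2 of 51 were called lower, against 4.88%. The median LFC was -0.051 (0.013 for all genes), 35 of 59 were below 0, and 22 were lower in all 3 batches, against 20.1% of all genes.

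In the direct test of EC vs. PG/VG, 4 genes were lower (ACTN1, ACTN4, FLNA and FLNC) and 0 were higher, against 0.299% lower and 0.555% higher among all genes, and 31 had an unadjusted p under 0.05, against 12.9% of all genes. Within the abundant genes, the same 4 of 51 were lower, against 0.93%. The median LFC was -0.15 (0.0024 for all genes), 55 of 59 were below 0, and 37 were lower in all 3 batches, against 14.6%. These counts depended on single libraries. The 25 calls of EC vs. control became 11, 15, 13 and 16 without the control library of batch 3, the control library of batch 4, the EC library of batch 3 and the EC library of batch 4. In the same fits the share of all genes called lower went from 5.38% to 2.89, 3.71, 3.5 and 3.39%. The 4 calls of EC vs. PG/VG became 0 without the EC or the PG/VG library of batch 2, 2 without the PG/VG library of batch 4 and 8 without the control library of batch 4. Of all genes, 0.0505, 0.0252, 0.126 and 0.496% were called lower in these fits, against 0.299% with all libraries. The 2 calls of PG/VG vs. control became 0 without the PG/VG library of batch 2 or 4 or any 1 of the control libraries, 1 without the EC library of batch 4 and 5 without the EC library of batch 2. Where 0 were left, 0.391 to 1.18% of all genes were called lower, against 1.9% with all libraries. Without the EC library of batch 4 or 2 the share was 2.0 or 3.52%. Without the batch term, 0 genes of the module passed in any of the 3 comparisons (8, 0 and 4 at an unadjusted p under 0.05). Among all genes, 0 were lower and 16, 1 and 1 were higher in that fit. DESeq2 with the batch term called 27, 5 and 9 genes lower, against 5.24, 2.33 and 0.487% of all genes, and 0 higher. ComBat-Seq followed by DESeq2 is the order of steps in the study's methods. Run here on the same counts, it called 36, 11 and 23 of 58 genes lower, and it also called more of all genes lower than the edgeR fit did (9.79, 5.67 and 2.08%). In PG/VG it called 1 of the 58 higher than control, against 4.78% of all genes.

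**Figure D2:**
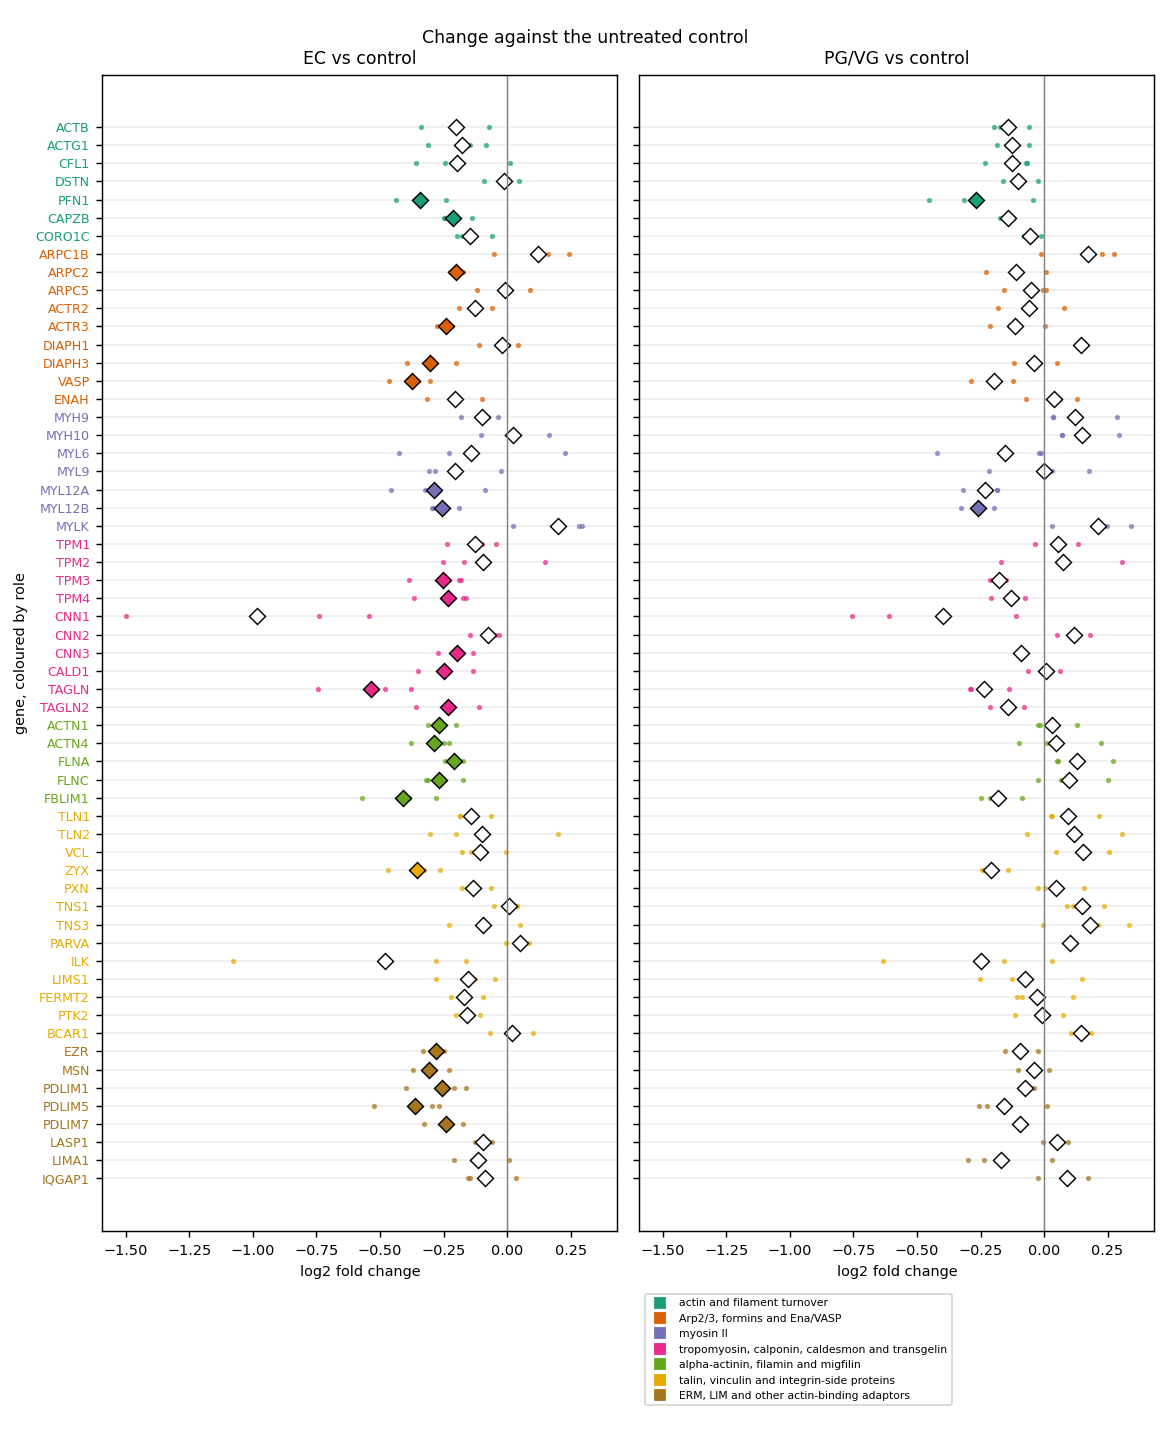
LFC of each gene against control for EC (left) and PG/VG (right), colored by role; diamonds are fitted LFC, filled where the adjusted p is under 0.05, and small dots are the log2 differences within batches 2, 3 and 4. The 25 filled diamonds on the left all lie below 0, and the 2 on the right are PFN1 and MYL12B.

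Among the actins and the proteins of filament turnover, 2 of 7 fell in EC (PFN1 and CAPZB) and 1 fell in PG/VG (PFN1), and all 7 had LFC below 0 in both. ACTB was at 7288, 7218 and 5634 CPM in control, 6358, 6928 and 4998 CPM in PG/VG and 6931, 6294 and 4456 CPM in EC, in the order of batches 2, 3 and 4 that is kept throughout. ACTG1 was at 6429.5, 6307 and 4727 CPM in control, 5660.5, 6056 and 4297 CPM in PG/VG and 6070.1, 5695 and 3809.9 CPM in EC. Both actins were lower in EC than in control within every batch, but the groups overlapped, batch 4 being low in every condition. Neither passed the test in EC (LFC ± SE for ACTB -0.20 ± 0.072, adjusted p = 0.0684; ACTG1, LFC -0.18 ± 0.071, adjusted p = 0.098) or in PG/VG (LFC -0.14 and -0.13, adjusted p = 0.277 and 0.328). PFN1, which loads actin monomers for filament growth, was at 961, 910.1 and 777 CPM in control, 773, 884 and 568 CPM in PG/VG and 814, 714 and 574 CPM in EC. It fell in EC (LFC -0.34 ± 0.077, adjusted p = 0.00475) and in PG/VG (LFC -0.27 ± 0.077, adjusted p = 0.0477), was lower than control in each batch under both, and in batches 2 and 4 stood lower in PG/VG than in EC. The PG/VG call was kept in 3 of the 9 fits that each left out 1 library (adjusted p up to 0.291), and the EC call was lost only without the EC library of batch 3 (adjusted p = 0.0534).

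CAPZB, the beta subunit of the protein that caps barbed filament ends, was at 324, 332 and 287 CPM in control, 296, 305 and 255 CPM in PG/VG and 294, 279.7 and 242 CPM in EC. It was lower in EC in every batch, with overlapping groups (LFC -0.21 ± 0.065, adjusted p = 0.033), and its call was kept in 4 of the 9 fits without 1 library. These fits left out a PG/VG library or the EC library of batch 2. CFL1 and DSTN, the actin-severing cofilin 1 and destrin, and CORO1C, a coronin, did not pass in EC, with LFC of -0.20, -0.013 and -0.15. Beta- and gamma-actin together held between 0.863 and 1.34% of all counts, the lowest share being that of the EC library of batch 4 and the highest that of the control library of batch 2.

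Of the 9 genes for Arp2/3 subunits, formins and Ena/VASP proteins, 4 fell in EC (VASP, DIAPH3, ACTR3 and ARPC2) and 0 passed in PG/VG. VASP, an elongation factor that sits at focal adhesions and at the leading edge, was at 113, 122 and 92.9 CPM in control, 104, 108 and 76 CPM in PG/VG and 91.5, 88.6 and 72.8 CPM in EC. The EC libraries lay below every control library, while PG/VG overlapped both groups. VASP fell in EC (LFC -0.37 ± 0.072, adjusted p = 0.00122), a call kept in all 9 fits without 1 library, and had an LFC of -0.20 in PG/VG (adjusted p = 0.116). DIAPH3, a formin that nucleates unbranched filaments, was at 198, 194 and 123 CPM in control, 192, 179 and 128 CPM in PG/VG and 150.5, 156 and 107 CPM in EC. Within each batch EC was the lowest of the 3 conditions for DIAPH3, while the groups overlapped through batch 4. It fell in EC (LFC -0.31 ± 0.068, adjusted p = 0.00447; adjusted p at most 0.0468 in the 9 fits), with an LFC of -0.038 in PG/VG and -0.27 between EC and PG/VG (adjusted p = 0.0622).

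ACTR3, the actin-related subunit that gives the Arp2/3 complex part of its name, was at 576, 510.5 and 403 CPM in control, 497, 465 and 405 CPM in PG/VG and 476, 438 and 347 CPM in EC. ARPC2, one of the complex's core subunits, was at 475, 467 and 461 CPM in control, 477, 431 and 394 CPM in PG/VG and 421, 403 and 395 CPM in EC. For ARPC2 the 3 EC libraries lay below the 3 control libraries, for ACTR3 they overlapped, and both were lower in EC within every batch. Both fell in EC (ACTR3, LFC -0.24 ± 0.066, adjusted p = 0.0186; ARPC2, LFC -0.20 ± 0.067, adjusted p = 0.0455), in 5 and 3 of the 9 fits without 1 library. The 3 fits that kept the ARPC2 call left out a PG/VG library. Without any 1 EC or control library that call was lost (adjusted p 0.0629 to 0.178). The other subunits did not pass: the LFC in EC was -0.13 for ACTR2, -0.0073 for ARPC5 and 0.12 for ARPC1B. The formin DIAPH1, which nucleates and elongates unbranched filaments, stood at an LFC of -0.021 with EC and 0.14 with PG/VG, and ENAH, the other Ena/VASP protein of the list, -0.20 in EC (adjusted p = 0.0531).

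Of the 7 myosin II genes, the regulatory light chains MYL12A and MYL12B fell in EC and MYL12B fell in PG/VG. MYL12A was at 302, 297 and 273 CPM in control, 266, 261 and 218 CPM in PG/VG and 285, 237 and 198 CPM in EC. Its PG/VG libraries all lay below the control libraries, and EC overlapped control through batch 2. It fell in EC (LFC -0.29 ± 0.072, adjusted p = 0.0101) and had an LFC of -0.23 in PG/VG that did not pass (adjusted p = 0.0683). MYL12B was at 431, 414 and 362 CPM in control, 362, 362 and 289 CPM in PG/VG and 379, 337 and 295 CPM in EC. In every batch both treatments were below control, and the LFC was the same to 2 decimals under EC (LFC -0.26 ± 0.066, adjusted p = 0.0109) and PG/VG (LFC -0.26 ± 0.066, adjusted p = 0.0248). The difference between the treatments was -0.00082 ± 0.066 for MYL12B. The PG/VG call of MYL12B was kept in 4 of the 9 fits without 1 library (adjusted p up to 0.156). Its EC call was lost without the control library of batch 3 or 4 or the EC library of batch 3 (adjusted p up to 0.0705). The heavy chains did not pass in any comparison: MYH9, the main nonmuscle myosin II heavy chain, was at -0.099 with EC and 0.12 with PG/VG (LFC), and MYH10 at 0.025 and 0.15. The LFC of the light chains MYL6 and MYL9 with EC was -0.14 and -0.21, and MYLK, the kinase that activates the regulatory light chains, was the gene with the highest LFC of the module under both treatments (0.20 and 0.21, adjusted p = 0.114 and 0.151).

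Tropomyosins, calponins, caldesmon and transgelins coat the sides of filaments, and 6 of these 10 genes fell in EC (TAGLN, TPM3, CALD1, TPM4, TAGLN2 and CNN3), while 0 passed in PG/VG. TAGLN, transgelin or SM22, a widely used SRF target at chr11:117199370-117207464 (GRCh38, plus strand), was at 473, 518 and 181 CPM in control, 431, 425 and 148 CPM in PG/VG and 364, 309 and 129 CPM in EC. Control exceeded PG/VG and PG/VG exceeded EC within every batch, and the groups overlapped only through batch 4, where every condition was low. TAGLN had the largest change of all called genes of the module in EC (LFC -0.54 ± 0.073, adjusted p = 4.48e-05), with within-batch differences of -0.38, -0.74 and -0.48, and the highest adjusted p in the 9 fits without 1 library was 0.00149. In PG/VG its LFC was -0.24 (adjusted p = 0.0616), and between EC and PG/VG -0.30 (adjusted p = 0.0525). The canonical transcript of TAGLN overlaps PCSK7, on the opposite strand, and another gene over 82.6% of its length, and the strand setting of the counting was not given in the sources used here. PCSK7 itself averaged 35.2 CPM in control and 33.1 in EC (LFC -0.10 ± 0.092, adjusted p = 0.515).

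TPM3, a tropomyosin, was at 877, 846 and 846 CPM in control, 790.1, 751 and 729.9 CPM in PG/VG and 773, 741 and 648 CPM in EC. All EC and all PG/VG libraries of TPM3 lay below the control libraries. It fell in EC (LFC -0.25 ± 0.067, adjusted p = 0.0138), while in PG/VG the LFC was -0.18 (adjusted p = 0.127). Without the control library of batch 3 or 4 or the EC library of batch 4 the EC call was lost (adjusted p up to 0.084). TPM4, a second tropomyosin, was at 1326, 1279 and 1026 CPM in control, 1260.1, 1185 and 887 CPM in PG/VG and 1178, 1144 and 795 CPM in EC. It was lower in EC in every batch, with overlapping groups, and fell in EC (LFC -0.23 ± 0.067, adjusted p = 0.0224). The TPM4 call was lost without the control library of batch 3 or 4 or the EC library of batch 4 (adjusted p up to 0.142). TAGLN2 was at 734, 770.4 and 741 CPM in control, 664, 729.6 and 640.0 CPM in PG/VG and 679.7, 599.8 and 630.0 CPM in EC. Each treated library of TAGLN2 was below each control library, and the gene fell in EC (LFC -0.23 ± 0.070, adjusted p = 0.0305), a call kept in 4 of the 9 fits. Here too, these left out a PG/VG library or the EC library of batch 2. CALD1, caldesmon, was at 704, 666 and 463 CPM in control, 716, 638 and 484 CPM in PG/VG and 552, 557 and 422 CPM in EC. In batch 4 the CALD1 level of every condition was below that of batches 2 and 3, and within each batch EC was the lowest. CALD1 fell in EC (LFC -0.25 ± 0.067, adjusted p = 0.0168), with an LFC of 0.0092 in PG/VG. The EC call of CALD1 was lost without the control or the EC library of batch 2 or 3 (adjusted p up to 0.116). TPM1 and TPM2, more abundant per length than TPM3 (584 and 323 against 121 CPM per kb in control), did not pass in EC (LFC -0.13 and -0.094).

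CNN1, the smooth muscle calponin, had the largest LFC of the module in all 3 comparisons, from the lowest level. It was at 0.699, 0.929 and 0.225 CPM in control, 0.655, 0.602 and 0.129 CPM in PG/VG and 0.238, 0.553 and 0.149 CPM in EC, from 3 to 16 counts per library. The groups overlapped, and none of the differences passed the test (-0.98 ± 0.47 in EC, -0.40 ± 0.45 in PG/VG and -0.59 ± 0.47 between them, adjusted p = 0.182, 0.675 and 0.659). The more abundant calponins CNN2 and CNN3 were at 125 and 210.1 CPM per kb in control, with LFC of -0.076 and -0.20 in EC (adjusted p = 0.503 and 0.0461).

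Among the alpha-actinins, filamins and migfilin of the module every gene fell in EC: ACTN1, ACTN4, FLNA, FLNC and FBLIM1, 5 of 5, with a median LFC of -0.27. In PG/VG 0 of the 5 passed and their median LFC was 0.046, and in the direct comparison 4 of the 5 were lower in EC, with a median of -0.33. Alpha-actinins (ACTN1 and ACTN4) bundle filaments, filamins (FLNA and FLNC) join crossing filaments and tether them to integrins, and migfilin (FBLIM1) binds filamin at focal adhesions.

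Several genes of the module are textbook SRF targets, and RefSeq promoter windows (GRCh38.p14, 250 bases before to 50 after each start), which 53 of the 59 genes have here, were searched for the CArG box. This element is bound by SRF and its pattern is palindromic, so that a search of 1 strand covers both. The box was held in 7 of 53 genes (13.2%), against 1.6% of 27305 genes, and in 7 of 95 starts (7.37%), against 1.29% of 35116. The genes were ACTG1, ACTN1, CNN2, FBLIM1, FLNA, MYLK and TPM4, of which ACTN1, FBLIM1, FLNA and TPM4 fell in EC. Of the 25 genes that fell, 24 have a window, and 20 of these, ACTN4 and FLNC among them, had no such letters in it, while 3 of the 29 genes with a window that were not called held the box. A match is only a match of letters, and no binding was measured. The 4 stretches printed here are those of the genes that both fell and held the box, and they do not stand for the genes that fell. They run 5′ to 3′ on the gene's strand, ending at the base before the start, with the box in capitals, and those of ACTN1, FBLIM1 and TPM4 lie at alternative starts inside the gene.
FLNA, chrX:154374635-154374884, minus strand: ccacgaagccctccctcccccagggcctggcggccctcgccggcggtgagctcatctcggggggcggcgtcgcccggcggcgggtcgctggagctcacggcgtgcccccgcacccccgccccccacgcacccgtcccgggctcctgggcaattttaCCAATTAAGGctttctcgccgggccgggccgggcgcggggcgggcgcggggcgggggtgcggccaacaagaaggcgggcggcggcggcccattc
ACTN1, chr14:68977567-68977816, minus strand: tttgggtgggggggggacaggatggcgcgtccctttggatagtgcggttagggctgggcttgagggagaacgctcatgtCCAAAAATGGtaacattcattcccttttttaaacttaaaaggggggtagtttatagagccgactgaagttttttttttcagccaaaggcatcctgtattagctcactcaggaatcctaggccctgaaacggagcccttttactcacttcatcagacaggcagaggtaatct
FBLIM1, chr1:15758545-15758794, plus strand: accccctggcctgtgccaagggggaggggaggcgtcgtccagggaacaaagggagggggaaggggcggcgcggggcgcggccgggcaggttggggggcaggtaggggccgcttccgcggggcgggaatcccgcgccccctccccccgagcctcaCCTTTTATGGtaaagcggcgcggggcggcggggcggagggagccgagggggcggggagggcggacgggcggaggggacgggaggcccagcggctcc
TPM4, chr19:16067288-16067537, plus strand: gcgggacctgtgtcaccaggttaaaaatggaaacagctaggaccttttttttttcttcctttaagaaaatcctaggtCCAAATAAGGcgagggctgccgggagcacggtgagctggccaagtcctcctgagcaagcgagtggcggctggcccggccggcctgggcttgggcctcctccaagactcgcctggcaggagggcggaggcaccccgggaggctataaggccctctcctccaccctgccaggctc
The boxes begin 94, 171, 96 and 173 bases before the start.

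FLNA, at chrX:154348524-154374634 on the minus strand, was at 3133, 3579 and 2594 CPM in control, 3785, 3722 and 2687 CPM in PG/VG and 2718, 3175 and 2188 CPM in EC. EC was the lowest condition and PG/VG the highest in every batch, and the groups overlapped, with batch 4 low throughout. In EC FLNA was just past the threshold (LFC -0.21 ± 0.070, adjusted p = 0.0495). That call was kept in 3 of the 9 fits without 1 library, those without a PG/VG library. It was lost without any 1 EC or control library (adjusted p 0.0705 to 0.189). In PG/VG FLNA had an LFC of 0.13 ± 0.070 (adjusted p = 0.311), and EC was lower than PG/VG (LFC -0.34 ± 0.070, adjusted p = 0.0182), with within-batch differences of -0.48, -0.23 and -0.30. FLNC, at chr7:128830406-128859274 on the plus strand, was at 498, 559 and 632 CPM in control, 593, 586 and 621 CPM in PG/VG and 401, 495 and 506 CPM in EC. Unlike most of the module it was highest in batch 4 in control, PG/VG and EC, and the 3 EC libraries lay below the 3 PG/VG libraries. FLNC fell in EC (LFC -0.27 ± 0.072, adjusted p = 0.0144), had an LFC of 0.099 in PG/VG (adjusted p = 0.47), and had the smallest adjusted p of the module in the direct comparison (LFC -0.37 ± 0.072, adjusted p = 0.0107).

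ACTN1, at chr14:68874128-68979440 on the minus strand, was at 1343, 1464 and 1173 CPM in control, 1468, 1439.9 and 1161 CPM in PG/VG and 1081, 1195 and 1019.6 CPM in EC. PG/VG and control lay close together in batches 3 and 4, and EC was lower than both in every batch. ACTN1 fell in EC (LFC -0.27 ± 0.068, adjusted p = 0.0104), had an LFC of 0.031 in PG/VG and was lower in EC than in PG/VG (LFC -0.30 ± 0.068, adjusted p = 0.0341). ACTN4, at chr19:38647649-38731589 on the plus strand, was at 1012, 1129 and 1020.2 CPM in control, 1181, 1139 and 952 CPM in PG/VG and 852, 964 and 786 CPM in EC. Its EC libraries all lay below the control libraries, and in each batch below the PG/VG library. ACTN4 fell in EC (LFC -0.29 ± 0.071, adjusted p = 0.00912), had an LFC of 0.046 in PG/VG and was lower in EC than in PG/VG (LFC -0.33 ± 0.071, adjusted p = 0.0233). The 4 calls between EC and PG/VG needed both libraries of batch 2, whose within-batch differences were the largest (-0.48, -0.56, -0.44 and -0.47 for FLNA, FLNC, ACTN1 and ACTN4): without its PG/VG library the adjusted p rose to 0.255, 0.22, 0.325 and 0.288. Their LFC without that library were -0.26, -0.28, -0.24 and -0.25, and without the EC library of batch 2 -0.30, -0.31, -0.25 and -0.30. In the same fits the genes called lower among all genes went from 48 to 4 and 8. The 4 calls were kept in 6, 7, 3 and 6 of the 9 fits, and the differences within batches 3 and 4 had the same sign as in batch 2. In EC vs. control, FLNC, ACTN1 and ACTN4 also lost their calls in some fits without 1 library (adjusted p up to 0.0854, 0.0829 and 0.0764).

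FBLIM1, at chr1:15756607-15786594 on the plus strand, was at 151, 160.5 and 105 CPM in control, 142, 138 and 88.7 CPM in PG/VG and 125, 123 and 70.9 CPM in EC. It went down in the order control, PG/VG, EC within each batch, with groups that overlapped through batch 4. FBLIM1 fell in EC (LFC -0.41 ± 0.071, adjusted p = 0.000506), in all 9 fits without 1 library, and in PG/VG, where both filamins had LFC above 0, its LFC was -0.18 (adjusted p = 0.144). Between EC and PG/VG its LFC was -0.23 (adjusted p = 0.15).

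**Figure D3:**
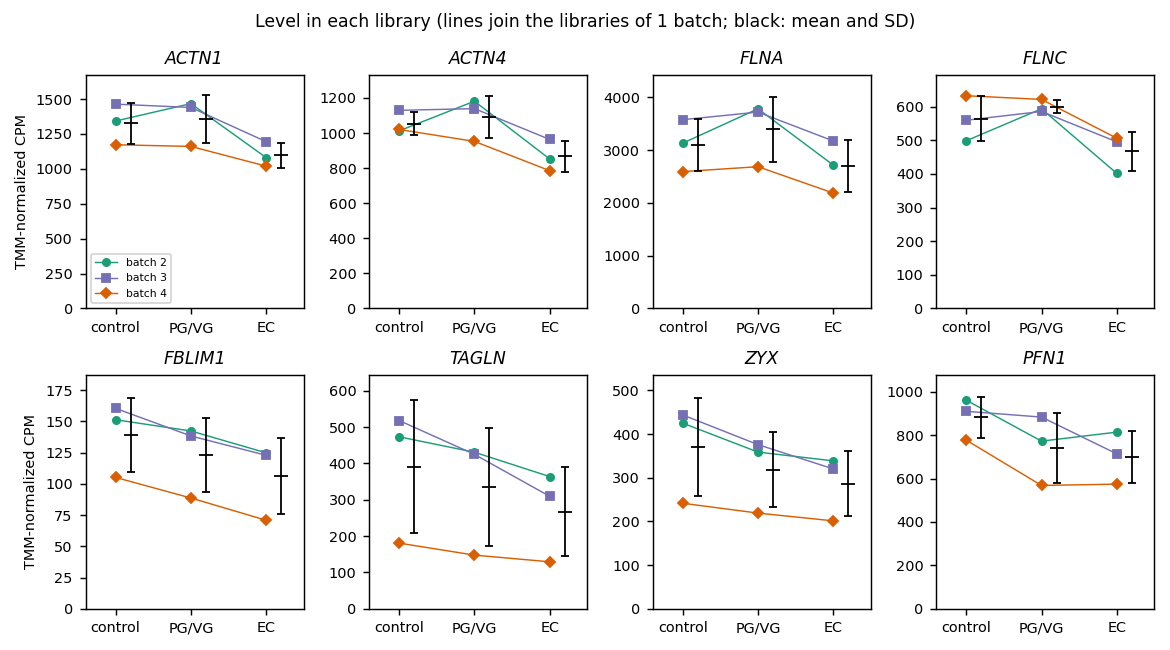
TMM-normalized CPM of 8 genes in each library, with lines joining the libraries of 1 batch and black bars for the mean ± SD of 3 libraries; each vertical axis starts at 0. EC lies below control in every batch for each of the 8 genes, PG/VG lies above EC in every batch for all but PFN1, and batch 4 is the lowest batch for FBLIM1, TAGLN and ZYX but not for FLNC.

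On the integrin side of the focal adhesion, 1 of 13 genes fell in EC, and 0 passed in PG/VG or in the direct comparison. That gene was ZYX, zyxin, a LIM protein recruited to adhesions and stress fibers under tension, which was at 425, 444 and 242 CPM in control, 359, 376 and 219 CPM in PG/VG and 339, 320.3 and 201 CPM in EC. Control exceeded PG/VG and PG/VG exceeded EC in every batch, and batch 4 was the lowest in each condition. ZYX fell in EC (LFC -0.35 ± 0.067, adjusted p = 0.00102), a call kept in all 9 fits, and had an LFC of -0.21 in PG/VG (adjusted p = 0.0723). The genes of the direct integrin-actin link were closer to 0 in EC: TLN1 (talin 1) had an LFC of -0.14 and VCL (vinculin) of -0.11, against 0.094 and 0.16 in PG/VG, and TLN2 (talin 2) had -0.099 and 0.12. PXN (paxillin), PTK2 (focal adhesion kinase) and BCAR1 (the kinase's scaffold p130Cas) had LFC of -0.13, -0.16 and 0.021 in EC. Of the ILK-PINCH-parvin complex, LIMS1 had an LFC of -0.15, PARVA of 0.049 and ILK of -0.48 ± 0.22, the last from 50 to 86 counts per library. FERMT2 (kindlin 2) had an LFC of -0.17, and the tensins TNS1 and TNS3 had 0.0091 and -0.095. All 13 had LFC below 0 between EC and PG/VG, from -0.28 to -0.052, and none of them passed the test.

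Of the 8 ERM, LIM and other actin-binding adaptors, 5 fell in EC (PDLIM5, MSN, EZR, PDLIM1 and PDLIM7) and 0 passed in PG/VG. MSN, moesin, which ties cortical actin to the plasma membrane, was at 747, 774 and 746 CPM in control, 756, 721 and 727 CPM in PG/VG and 598, 661 and 576 CPM in EC. All 3 EC libraries of MSN lay below all 6 others, and batch 4 did not stand apart. MSN fell in EC (LFC -0.31 ± 0.067, adjusted p = 0.00381), in all 9 fits, with an LFC of -0.040 in PG/VG and -0.27 between EC and PG/VG (adjusted p = 0.0591). EZR, ezrin, its paralog of epithelial microvilli, was at 654, 646 and 544 CPM in control, 643, 580.0 and 505 CPM in PG/VG and 545, 514 and 458 CPM in EC. EZR was the lowest in EC within each batch, with groups that overlapped at the edge, and fell in EC (LFC -0.28 ± 0.065, adjusted p = 0.0056). Its call was lost only without the control library of batch 3 (adjusted p = 0.0684).

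PDLIM5, a PDZ-LIM protein that binds alpha-actinin, was at 349, 325 and 235 CPM in control, 293, 278 and 237 CPM in PG/VG and 243, 269.9 and 191 CPM in EC. EC was below control in each batch, and the groups overlapped through the low control library of batch 4. PDLIM5 fell in EC (LFC -0.36 ± 0.073, adjusted p = 0.00178), in all 9 fits. PDLIM1 was at 214, 215 and 109.8 CPM in control, 201, 202 and 107 CPM in PG/VG and 185, 163 and 98.1 CPM in EC. PDLIM7 was at 227, 238 and 145 CPM in control, 216, 221 and 135 CPM in PG/VG and 195, 189 and 129 CPM in EC. For both, batch 4 was far below batches 2 and 3 in every condition, and within batches the order was control, PG/VG, EC. They fell in EC (PDLIM1, LFC -0.26 ± 0.069, adjusted p = 0.0154; PDLIM7, LFC -0.24 ± 0.066, adjusted p = 0.0173), in 7 and 6 of the 9 fits without 1 library. LASP1, LIMA1 (EPLIN) and the scaffold IQGAP1 did not pass in EC, with LFC of -0.095, -0.11 and -0.087.

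**Figure D4:**
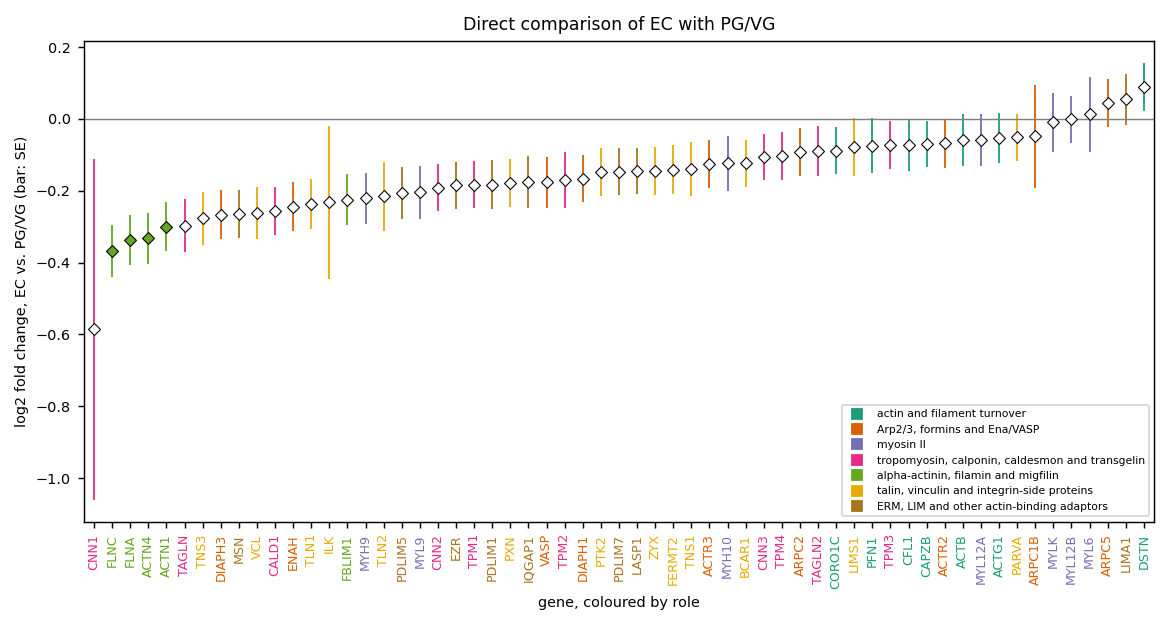
LFC of EC vs. PG/VG for the 59 genes in order of size, with the SE as bars and colors for roles; diamonds are filled where the adjusted p is under 0.05. The 4 filled diamonds are FLNC, FLNA, ACTN4 and ACTN1, from -0.37 to -0.30, and 55 of the 59 lie below 0, while CNN1 at the left end has an SE almost as large as its LFC.

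More genes of the module were called between batches than between treatments. The batch contrast uses the libraries of every condition and a treatment contrast sets only its own conditions apart, so these counts have unlike power. Batch 4 against the mean of batches 2 and 3, in the same fit, gave 42 genes lower and 4 higher, against 20.5% lower and 20.1% higher among all genes, with a median LFC of -0.29 (-0.0031 for all genes). CNN1 (-1.83), TAGLN (-1.46), MYL9 (-1.26), ENAH (-1.05) and PDLIM1 (-0.90) were the lowest in batch 4, and PXN (0.38), CORO1C (0.34), IQGAP1 (0.21) and FLNC (0.17) were the 4 higher genes. The share of counts taken by the module was 3.72, 3.6 and 3.28% in control, PG/VG and EC of batch 4, against 4.22 to 4.58% in the other libraries. Within each batch the share was lowest in EC. Across the 59 genes, the LFC of EC vs. control and that of batch 4 had a Pearson r of 0.541 and a Spearman correlation of 0.289, as a description, since both come from the same libraries and CNN1 and TAGLN lie at the end of both. Without batch 4, 14 of the 59 passed for EC and 0 for PG/VG against control, and 1 passed in the direct test, with medians of -0.19, -0.067 and -0.15. Calls over all genes fell too: 3.43, 1.0 and 0.136% were lower, against 5.38, 1.9 and 0.299% with batch 4.

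**Figure D5:**
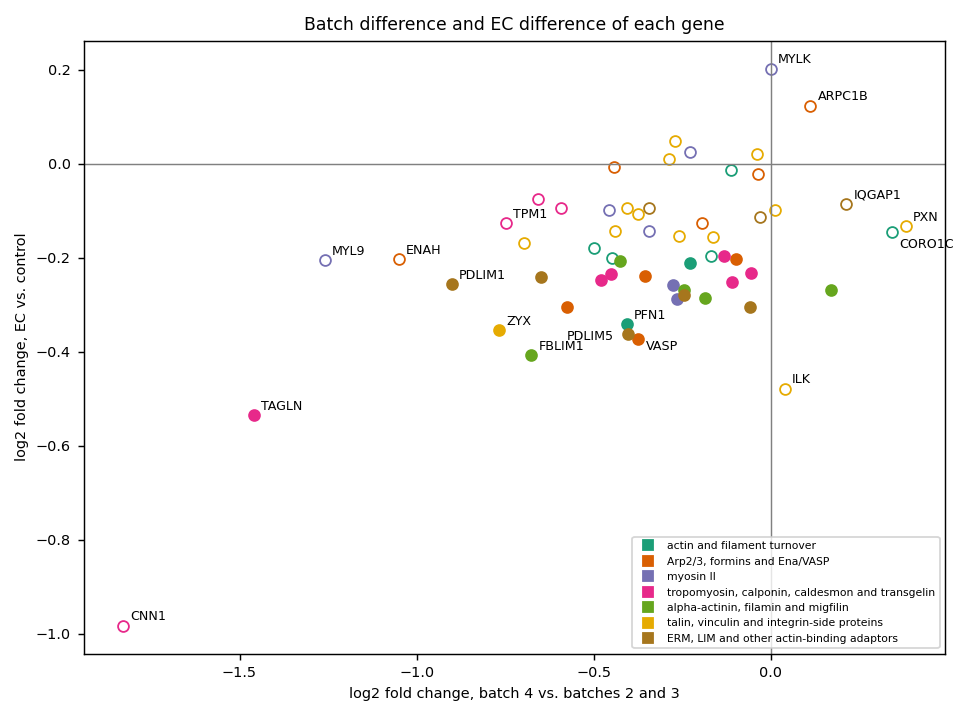
LFC of batch 4 vs. batches 2 and 3 (horizontal) against LFC of EC vs. control (vertical) for the 59 genes, colored by role and filled where the adjusted p in EC is under 0.05. Most genes sit at the lower left, TAGLN and CNN1 are the lowest on both axes, and MYL9 and ENAH are low in batch 4 (-1.26 and -1.05) with LFC near -0.20 in EC.

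The genes around the module were taken from 2 further lists. Of 46 other actin filament genes, 44 were tested: 6 were lower and 2 higher in EC, and 1 was lower and 2 were higher in PG/VG, against 5.38% of all genes lower and 8.07% higher in EC and 1.9% lower and 2.63% higher in PG/VG. FSCN1, fascin, which bundles filaments in filopodia, went against the module and rose under both, at 102, 112 and 123 CPM in control, 144, 148 and 154 CPM in PG/VG and 161, 159.9 and 188 CPM in EC (LFC 0.59 and 0.41, adjusted p = 7.23e-06 and 0.0016). Its 6 treated libraries all lay above the 3 control libraries. TMSB4X, thymosin beta 4, which sequesters actin monomers, fell under both (LFC -0.47 and -0.40, adjusted p = 0.00197 and 0.0155), as WDR1 and CAP1, partners of cofilin, did in EC (-0.31 and -0.30, adjusted p = 0.00332 and 0.00402). SYNPO, synaptopodin, rose in PG/VG (LFC 0.41 ± 0.076, adjusted p = 0.00295). Of 26 other adhesion adaptors, 25 were tested, with 3 lower and 4 higher in EC, 1 lower and 2 higher in PG/VG, and 0 in the direct comparison, against the same shares of all genes. TNS2, a tensin, and KANK2, a talin-binding adaptor, rose under both (TNS2, LFC 0.47 and 0.48, adjusted p = 0.000323 and 0.00115; KANK2, 0.28 and 0.35, adjusted p = 0.023 and 0.0122), while TGFB1I1 (Hic-5), a paralog of paxillin, fell under both (-0.32 and -0.26, adjusted p = 0.00374 and 0.0389). RSU1, a partner of the ILK-PINCH-parvin complex, fell in EC (LFC -0.25 ± 0.067, adjusted p = 0.0133). TNS4 was called higher in EC, at 0.576 against 0.138 CPM in control, from very few reads (LFC 2.02 ± 0.59, adjusted p = 0.0253). Its counts were 1, 2 and 4 in control, 8, 2 and 10 in PG/VG and 11, 14 and 14 in EC. No control library reached the 10 counts of the filter, which TNS4 passed through EC, so little can be read from this call.

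Other features moved with these results. The epithelial and mesenchymal marker sums also ran lower in EC, from 1459.6 to 2286.8 and from 3621.7 to 5506.6 CPM, than in control, from 1775.9 to 2844.0 and from 5132.8 to 7095.7 CPM, and KRT18, KRT7, KRT8, FN1, CDH2 and THY1 fell, which are 3 of the 6 epithelial and 3 of the 5 mesenchymal markers. Of all genes tested, 5.38% were called lower in EC vs. control, and 14.4% of those with a mean of at least 100 CPM. The other markers of both lists did not pass in EC. KRT19, EPCAM, CDH1 and COL1A1 had LFC above 0 (0.18, 0.575, 0.36 and 0.17), and VIM had -0.22. The smooth muscle sum, which holds TAGLN, was 364.6 to 474.7 CPM in EC and 404.7 to 634.2 in control. The part of these markers in the module's differences was not tested. Across the 59 genes, the LFC of PG/VG vs. control went with the length of the canonical transcript (Pearson r 0.596, Spearman correlation 0.603, against 0.224 over 15949 genes), whereas for EC vs. control the Spearman correlation was 0.332, against 0.0933 over all genes, and for EC vs. PG/VG -0.313, against -0.153. With GC content, the Spearman correlation of the LFC was -0.362 for EC vs. PG/VG, against 0.0148 over all genes. For EC and PG/VG vs. control it was -0.11 and 0.129, against 0.133 and 0.145 over all genes. These are descriptions of genes from shared libraries, and the part of length and GC content was not tested. The module's median length was 3783 bases and its median GC content 51.9%, against 2962 bases and 48.6% for all genes tested. With a trend in GC content and length removed from every library, 47, 10 and 24 genes were lower and 0 were higher in the 3 comparisons, against 16.5, 6.46 and 2.36% of all genes lower in the same fits.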

How the data were processed

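The members and the lists were chosen with earlier results of these data known. The deposited table holds raw counts per gene; per the labels and the study's methods the authors used fastp for read quality, STAR for alignment (GRCh38.p12) and featureCounts (Subread 2.0.4) over exons, leaving out multi-mapping reads and those on several genes; the strand setting was not given in the sources used here. The table's gene IDs were given symbols through GENCODE 44, which held 62666 of 63187.

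The 16030 genes that reached 10 counts in 3 or more libraries were normalized by TMM and tested with edgeR 4.0.16 (quasi-likelihood, robust, condition + batch, all 9 libraries), with Benjamini-Hochberg adjustment over all genes and a threshold of 0.05; the SE is the LFC divided by the square root of F. The script was checked on simulated counts. The labels number the batches, which are the replicate block; libraries of 1 batch deviated together (r 0.334 to 0.399 in batches 2 and 3 and 0.648 to 0.707 in batch 4), but pairs across batches 2 and 3 had r of 0.28 to 0.426, so that batch 4 alone stood apart (r -0.539 to -0.419 with the others). Replicates differed by more than sampling noise (chi-square per gene 3.66 to 52.8), so all 9 libraries were kept. Log2 differences within a batch used counts plus 0.5.

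Values in every library are given for the 24 called genes with the smallest adjusted p, the 3 highest per length and the largest LFC of each comparison, and up to 5 called genes are named from each further list; the results of 1 further list and of 1 gene are not reported here. Alternatives used RLE size factors, library size, no filter, no block, 2 groups alone, DESeq2 1.42.0, ComBat-Seq (sva 3.50.0) and each library left out. Leaving out batch 4 and removing a trend in GC content and length were added after the data were seen.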

Additional observations from a re-analysis of the deposited data

Results flagged for a closer look

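A difference between the treatments by the direct test of EC vs. PG/VG was found for 4 genes of the module, all of them crosslinkers: ACTN1 (LFC -0.30 ± 0.068, adjusted p = 0.0341), ACTN4 (-0.33 ± 0.071, adjusted p = 0.0233), FLNA (-0.34 ± 0.070, adjusted p = 0.0182) and FLNC (-0.37 ± 0.072, adjusted p = 0.0107). All 4 were lower in EC than in PG/VG in 3 of 3 batches. The difference was the largest in batch 2 for each of them, and all 4 calls were lost without the EC or without the PG/VG library of that batch, where their LFC lay between -0.31 and -0.24 and the genes called lower among all genes went from 48 to 8 and 4.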

How the results depend on the processing

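With library size in place of TMM, 15 genes were called in EC vs. control, of which 14 were lower, while PG/VG vs. control gave 1, with median LFC of -0.14, -0.024 and, in EC vs. PG/VG, -0.11. The medians of all genes moved up as well, to 0.068, 0.040 and 0.036 from 0.0078, 0.013 and 0.0024. Of all genes, 3.03% were called lower in EC and 1.47% in PG/VG against control. Without the replicate block 0 were called in each of the 3 treatment comparisons, where 0.0% of all genes were called lower. DESeq2 with batch called 5 in PG/VG vs. control and 9 in EC vs. PG/VG, a fit of the 2 groups alone called 6 in PG/VG vs. control, no filter gave 10 in EC vs. PG/VG, and ComBat-Seq followed by DESeq2 gave 12 and 23. In the same order, 2.33, 0.487, 3.99, 0.409, 5.67 and 2.08% of all genes were called lower. Without batch 4 the counts were 14, 0 and 1, against 3.43, 1.0 and 0.136% of all genes called lower. With the GC and length trend removed they were 47, 10 and 24, against 16.5, 6.46 and 2.36%. That fit had medians of -0.25 for EC and -0.099 for PG/VG against control, and -0.050 and -0.030 over all genes. With 1 library left out, counts ranged from 11 to 27 for EC and from 0 to 5 for PG/VG against control, from 0 to 8 in EC vs. PG/VG and from 41 to 45 between batches, and the medians ranged from -0.22 to -0.17, from -0.070 to -0.0019 and from -0.16 to -0.13. The 27 for EC, without the EC library of batch 2, were 26 lower and 1 higher. The share of all genes called lower ranged from 2.89 to 5.84%, from 0.391 to 3.52% and from 0.0252 to 0.506% in the 3 treatment comparisons. Between batches, 15.7 to 20.3% of all genes (2491 to 3213) were called lower in these fits, and 2460 to 3210 genes were called higher. The count of EC vs. control lay within 1.5 times the 25 under RLE size factors (28), no filter (21), DESeq2 with batch (27), the 2 groups alone (27) and ComBat-Seq (36). The shares of all genes called lower there were 6.12, 2.17, 5.24, 5.56 and 9.79%. For called genes, 408 of 558 values under an alternative kept their side of the threshold, 150 lost the call and 0 changed sign. The causes were not tested. With 3 libraries per condition and changes of at most 31.0% among the called genes, many genes lie near the threshold, and depth limits CNN1 (3 to 16 counts), ILK (50 to 86) and ARPC1B (81 to 160). Outside the module, depth also limits TNS4 (1 to 14 counts).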
